A study of Mus musculus with 2 samples.

Results

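The interferon-induced GTPases are enzymes that cells make in large amounts once interferon has reached them, and 10 of their genes were followed here through the immune cells of a mouse mammary tumor. They were Gbp2, Gbp2b, Gbp3, Gbp4, Gbp5 and Gbp7 of the guanylate-binding protein (GBP) family, and Iigp1, Irgm1, Igtp and Ifi47 of the immunity-related GTPase (IRG) family. The genes were chosen as a list of symbols, with earlier results of these data known, and all 10 were found among the 27998 genes of the count tables. CD45+ cells (CD45 marks leukocytes) were isolated from TSA tumors, which grow from a mouse mammary carcinoma line injected under the skin of Balb/c mice. One group of animals was left untreated and the other received 0.5% NAM (nicotinamide, a form of vitamin B3) in its drinking water for 10 days. Tumors of 3 mice were pooled in each group and sequenced as 1 library per group, so mice cannot be told apart, there are no replicates and no test was made. A difference between the libraries was called higher or lower only where its 95% interval left out no difference; these intervals cover counting error only, and NAM itself cannot be separated from whatever else differed between both pools.

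Interferon gamma binds its receptor and, through the kinases Jak1 and Jak2, acts on DNA elements called GAS. Type I interferons act on elements called ISRE, which Irf1, itself a product of interferon gamma signaling, can also bind. GBPs assemble on the vacuoles and surfaces of intracellular microbes and promote inflammasome responses, IRGs such as Iigp1 attack the vacuole membrane, and Irgm1 and Igtp belong to the regulatory IRGs that hold the effector IRGs in check on the cell's own membranes. In macrophages, this set of genes is a standard readout of interferon exposure.

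Of the 10 genes, 8 had a promoter in the RefSeq table for GRCm38.p6, and 7 of these are shown because they hold letters of the kind that interferon-activated factors bind. Windows of 250 bases before the start were searched on both strands. The GAS letters were TTC, any 3 bases, GAA, and the ISRE letters were GAAA, any 2 bases, GAAA, which read TTTC, any 2 bases, TTTC when they lie on the other strand. The ISRE letters stood in the windows of 7 of the 8 genes (all but Ifi47), against 2.98% of all 32851 windows in the table. The GAS letters stood in those of Gbp5, Gbp7 and Igtp, against 7.02% of all windows, and both kinds stood together in these same 3 genes, against 0.332% of all windows. With a gap of 4 bases the GAS letters were found only at the other listed start of Gbp3, against 5.85% of all windows. Below, capitals mark each match, and the sequences run 5′ to 3′ along the strand of transcription. Gbp5 (chr3:142496684-142496899, plus strand), Gbp7 (chr3:142530086-142530335, plus strand) and Igtp (chr11:58199306-58199555, plus strand) hold both kinds of letters, and Gbp5 is shown up to 35 bases before its start.
Gbp5: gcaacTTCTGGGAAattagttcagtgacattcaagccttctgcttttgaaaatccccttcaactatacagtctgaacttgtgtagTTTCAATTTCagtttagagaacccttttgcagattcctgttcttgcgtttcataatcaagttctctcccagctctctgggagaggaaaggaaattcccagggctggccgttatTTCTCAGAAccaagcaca
Gbp7: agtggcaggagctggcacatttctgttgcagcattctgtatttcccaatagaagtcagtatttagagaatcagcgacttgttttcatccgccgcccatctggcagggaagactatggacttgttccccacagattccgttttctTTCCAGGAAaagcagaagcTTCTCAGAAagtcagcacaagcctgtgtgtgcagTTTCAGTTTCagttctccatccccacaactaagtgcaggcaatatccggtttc
Igtp: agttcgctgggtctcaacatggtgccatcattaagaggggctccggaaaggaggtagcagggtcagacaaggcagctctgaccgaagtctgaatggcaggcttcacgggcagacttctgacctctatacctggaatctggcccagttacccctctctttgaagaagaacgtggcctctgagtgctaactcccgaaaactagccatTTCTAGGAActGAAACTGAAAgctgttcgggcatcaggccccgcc
In Gbp5 the GAS letters begin 245 and 52 bases before the start and the ISRE letters 165 bases before it. In Gbp7 they begin 106 and 87 bases before the start, with the ISRE letters 53 bases before it. In Igtp the GAS letters, at 45 bases, and the ISRE letters, at 34 bases, are separated by 2 bases.

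The other 4 genes with a match hold ISRE letters alone. Gbp2b (chr3:142594597-142594846, plus strand) is shown whole, and Gbp2 (chr3:142620594-142620623, plus strand), Gbp3 (chr3:142559992-142560021, plus strand) and Irgm1 (chr11:48871428-48871457, minus strand) as the 30 bases around the match.
Gbp2b: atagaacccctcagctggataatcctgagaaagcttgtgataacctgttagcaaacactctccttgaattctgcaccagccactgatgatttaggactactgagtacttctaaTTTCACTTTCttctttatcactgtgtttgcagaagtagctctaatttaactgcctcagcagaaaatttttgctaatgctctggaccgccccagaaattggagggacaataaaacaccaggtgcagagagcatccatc
Gbp2: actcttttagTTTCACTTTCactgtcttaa
Gbp3: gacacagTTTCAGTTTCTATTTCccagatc
Irgm1: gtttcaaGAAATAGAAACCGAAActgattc
In Gbp3 and in Irgm1 a pair of matches overlap, so that the 4-base unit recurs 3 times at 6-base steps. A match of letters is a description of the window and was not measured as a bound site.

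In the GENCODE vM21 annotation of GRCm38, the 5 genes Gbp5, Gbp7, Gbp3, Gbp2b and Gbp2 stand in a row on the plus strand of chromosome 3, from position 142493978 to 142638008. Gbp4 lies on the minus strand of chromosome 5 (105115767 to 105139586), where its annotated span overlaps those of Gbp8 and Gbp9 on the same strand. Irgm1 (48861968 to 48871683, minus strand), Ifi47 (49076587 to 49096974, plus strand) and Igtp (58199556 to 58207591, plus strand) lie on chromosome 11. The spans of Igtp and Irgm2 overlap, as do those of Ifi47 and Olfr56. Gbp2 and Gbp2b are close copies of each other, and the way the counting split reads between near-identical or overlapping genes is not known, so single values of Gbp2, Gbp2b, Gbp4 and Igtp are less certain than their sums.

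The untreated library held 2922 cells and 29161823 unique molecular identifiers (UMIs, each counting 1 captured RNA molecule). For NAM these were 3276 cells with 32090120 UMIs. Median UMIs per cell were 9056 and 9128. Cells were assigned to groups by UMIs of marker genes that did not include the 10 GTPases. Macrophages, with 20 or more UMIs of C1qa, C1qb and C1qc, made up 68.8% of the untreated and 67.9% of the NAM cells (2010 and 2225 cells). Ly6c2 monocytes numbered 186 and 198 cells, dendritic cells of 3 types 90 and 96, CD8 T cells 95 and 146, CD8-negative T cells 106 and 116, and NK cells 52 and 29. A further 383 and 466 cells met no gate. Markers that the gates did not use were read after each cell was thinned at random to 3000 UMIs, so that depth was equal. Adgre1, the F4/80 antigen of macrophages, was seen in 58.7% of untreated and 52.3% of NAM macrophages, against 3.16% and 1.37% of CD8 T cells. Ly6c2 monocytes stood between, with 29.6% and 22.2%, so this marker does not separate them cleanly from macrophages. Gzma, a granzyme of NK cells, was seen in 46.2% and 69.0% of NK cells, against 1.24% and 1.12% of macrophages. CD8-negative T cells also held NK markers, Gzma in 2.83% and 12.1% and Ncr1 in 13.2% and 16.4% of thinned cells, and their part in the values of that group was not tested. No doublet caller was run; 13 untreated and 27 NAM cells met both the T-cell and the macrophage gates and were left out of both, and 11 cell barcodes occurred in both libraries.

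RNA of macrophage genes was measurable in the other cells, and its source, such as free RNA or doublets, was not tested. C1qa, which T cells should lack, was seen in 33.7% and 40.4% of thinned CD8 T cells of the untreated and NAM libraries, at 2.11% and 2.21% of its level in macrophages. The members other than Iigp1 stood in CD8 T cells at proportions from 28.3% (Gbp2b) to 141% (Gbp4) of the macrophage level in the untreated library and from 12.4% (Gbp2b) to 121% (Ifi47) with NAM. Iigp1 was at 4.18% and 4.31% of the macrophage level, with 3 and 7 UMIs in all, and these few UMIs cannot be separated from such background RNA. Erythrocyte RNA was concentrated in 5 NAM cells with 10 or more haemoglobin UMIs (0 untreated cells), and leaving these out moved no member's interval on to or off 0.

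Levels are given as CPM, the UMIs of a gene per 1000000 UMIs of the cell group. The summed level of the 10 genes was highest in Ly6c2 monocytes, the blood-derived cells that enter tumors and become macrophages, at 1508 CPM untreated and 1948 CPM with NAM. In both libraries that interval stood clear of the next group. CD8-negative T cells (918 CPM) and macrophages (870 CPM) came next in the untreated library and were not separated at this depth. In the NAM library, macrophages came next at 1200 CPM, not separated from mature dendritic cells at 1072 CPM. Type 1 dendritic cells, which cross-present antigen to CD8 T cells, had the lowest level in both, 289 and 258 CPM.

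The members did not share 1 order of cell groups. Gbp2 and Gbp2b were highest in monocytes in both libraries: Gbp2 stood at 260 and 317 CPM there, against 88.1 and 123 CPM in macrophages. Irgm1 was also highest there, with 171 and 220 CPM, while mature dendritic cells (90.9 CPM), Cd209a dendritic cells (88.4 CPM) and macrophages (70.3 CPM) of the untreated library were not separated. Iigp1 was the only member highest in macrophages in both libraries, at 144 CPM untreated, above 69.8 CPM in monocytes, and at 212 CPM with NAM, where Cd209a dendritic cells (175 CPM) were not separated from it. Gbp7 was highest in CD8-negative T cells, at 126 and 121 CPM, although macrophages of the NAM library (117 CPM) were not separated from them. Gbp4 was highest in NK cells of the untreated library (200 CPM) but in mature dendritic cells of the NAM library (261 CPM), in each case not separated from monocytes. Gbp5 reached 56.3 CPM in untreated monocytes and 55.6 CPM in NAM mature dendritic cells.

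Over the 16 combinations of 8 cell groups and 2 libraries, the correlations of the 45 pairs of members ran from -0.09 (Gbp4 and Iigp1) to 0.92 (Gbp2 and Gbp2b), with a median of 0.57. The points share libraries, so these values are descriptions. Of 10257 genes ranked in the same way, those with a pattern most like the summed members were Casp4 (r = 0.93), Xaf1 (0.92), Oas1a (0.90), Nhlrc3 (0.90), Ccrl2 (0.89), Tmbim6 (0.89), Cebpb (0.87), Cib1 (0.87), Smox (0.86) and Ms4a4c (0.86).

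**Figure D1:**
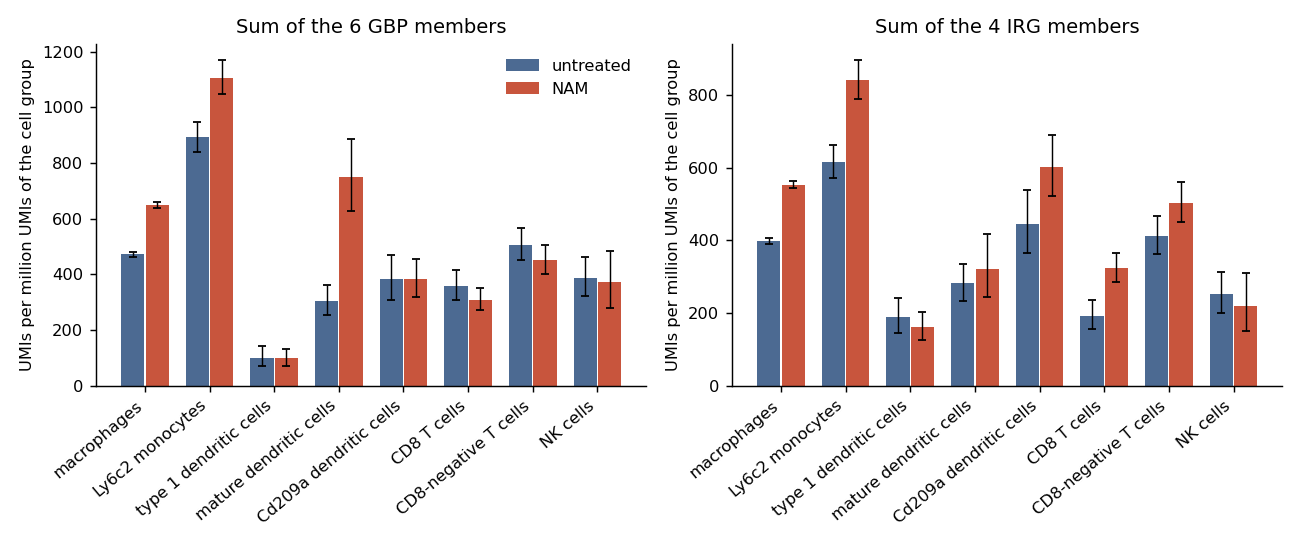
Level of the 6 GBP members (left) and of the 4 IRG members (right), each summed, in UMIs per 1000000 UMIs of the cell group (CPM), for 8 gated cell groups of the untreated (blue) and NAM (red) libraries; bars start at 0 and error bars are exact 95% Poisson intervals for counting error. Monocytes stand highest in both panels (892 CPM for GBPs and 615 CPM for IRGs in the untreated library), and mature dendritic cells differ between the libraries in GBPs (304 and 750 CPM) more than in IRGs (282 and 322 CPM).

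In macrophages, all 10 members were higher in the NAM library, whereas the interval lay above 0 for 14.6% and below 0 for 22.3% of genes with 100 or more UMIs. Intervals leave out 0 more readily at higher counts, and the members held 430 (Gbp5) to 3044 (Iigp1) UMIs in untreated macrophages. Shares by interval, here and below, are not matched for depth. The summed UMIs of the members went from 18392 to 28073 and their summed level from 870 to 1200 CPM, a log2 ratio (NAM over untreated) of 0.46 (0.44 to 0.49). The GBP sum and the IRG sum moved alike, with log2 ratios of 0.46 and 0.47. The median log2 ratio of the members was 0.45, against -0.03 for all 9808 such genes. At least 1.3-fold higher levels were seen for 6 of 10 members, against 3.34% of those genes.

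The 6 were Irgm1, Gbp2b, Iigp1, Gbp4, Gbp2 and Igtp. Irgm1, a regulatory IRG, went from 70.3 to 105 CPM (log2 ratio 0.58), and Igtp, another of that class, from 75.4 to 101 CPM (0.43). Iigp1, the effector IRG that disrupts vacuole membranes, went from 144 to 212 CPM (log2 ratio 0.56, 0.49 to 0.62), on 3044 and 4960 UMIs. Among GBPs, Gbp2b went from 128 to 189 CPM (log2 ratio 0.57, 0.50 to 0.64), Gbp4 from 84.0 to 123 CPM (0.55) and Gbp2 from 88.1 to 123 CPM (0.48). Smaller ratios were found for Gbp7 (93.3 to 117 CPM, 0.33), Gbp3 (58.3 to 71.5 CPM, 0.30), the IRG Ifi47 (109 to 134 CPM, 0.30) and Gbp5 (20.3 to 24.4 CPM, 0.26, with an interval of 0.08 to 0.44). No interval of the 10 reached 0, although that of Gbp5 did in thinned cells (0.22, -0.12 to 0.55). At a limit of 1.5-fold, 0 of the 10 members passed.

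**Figure D2:**
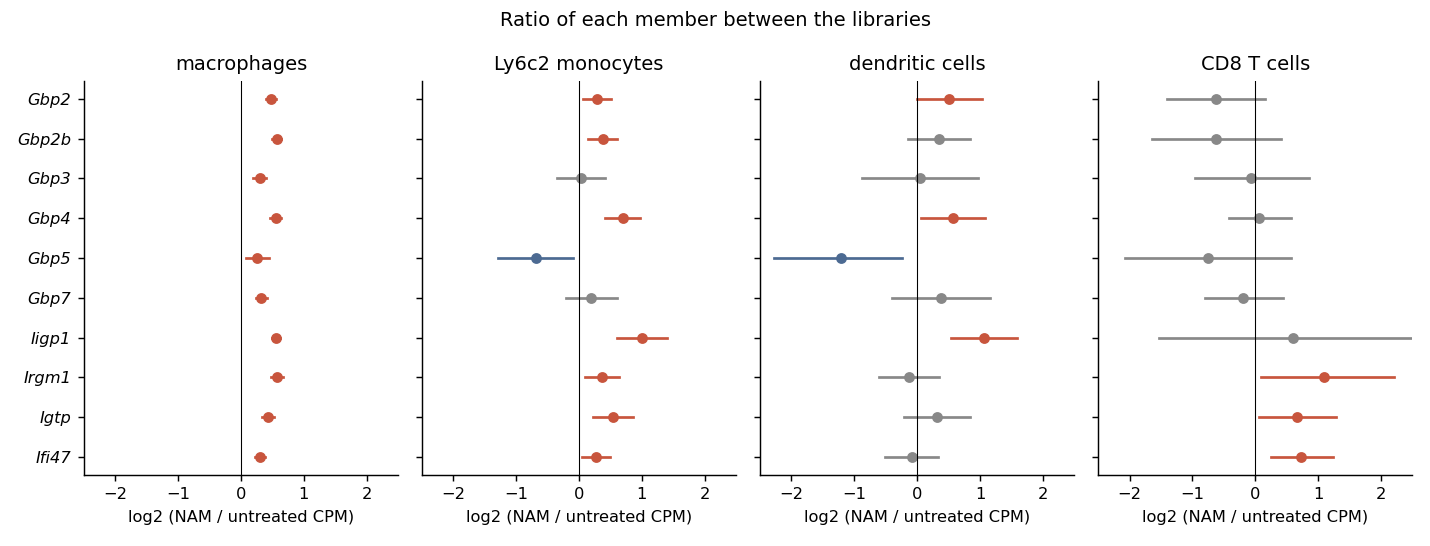
Log2 ratio of CPM, NAM over untreated, of each of the 10 members in macrophages, monocytes, dendritic cells and CD8 T cells; points are ratios, lines are exact 95% intervals for counting error, red marks intervals above 0, blue below 0 and gray those that hold 0. All 10 lie above 0 in macrophages, Gbp5 lies below 0 in monocytes (-0.69) and pooled dendritic cells (-1.21), and in CD8 T cells the 3 above 0 are Irgm1, Igtp and Ifi47 (the line of Iigp1 runs past the axis, to 3.18).

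In thinned macrophages, the share of cells in which a member was seen differed more between the libraries than its UMIs per positive cell. In cells thinned to 3000 UMIs, Gbp4 was seen in 17.5% of untreated and 26.0% of NAM macrophages, Iigp1 in 20.9% and 29.3%, and Gbp2b in 23.1% and 31.3%. The log2 ratio of these shares ran from 0.22 to 0.57 over the 10 members. The log2 ratio of UMIs per positive cell ran from -0.07 to 0.14. At this depth a higher level in each cell also shows mostly as a higher share of cells with a UMI. These values therefore cannot tell more expressing cells from more RNA per cell.

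Counted over all 10 members, macrophages with no member UMI went from 34.3% to 24.2% of thinned cells. Those with 5 or more member UMIs went from 18.5% to 28.1%, those with 10 or more from 5.87% to 9.66%, and the median from 1 to 2 UMIs. The share with 5 or more different members detected went from 10.9% to 17.3%. The tenth of macrophages with most member UMIs held 45.0% of them in the untreated library and 40.2% with NAM. In monocytes the share with no member UMI went from 24.7% to 14.6%, and the share with 10 or more from 15.6% to 24.2%.

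**Figure D3:**
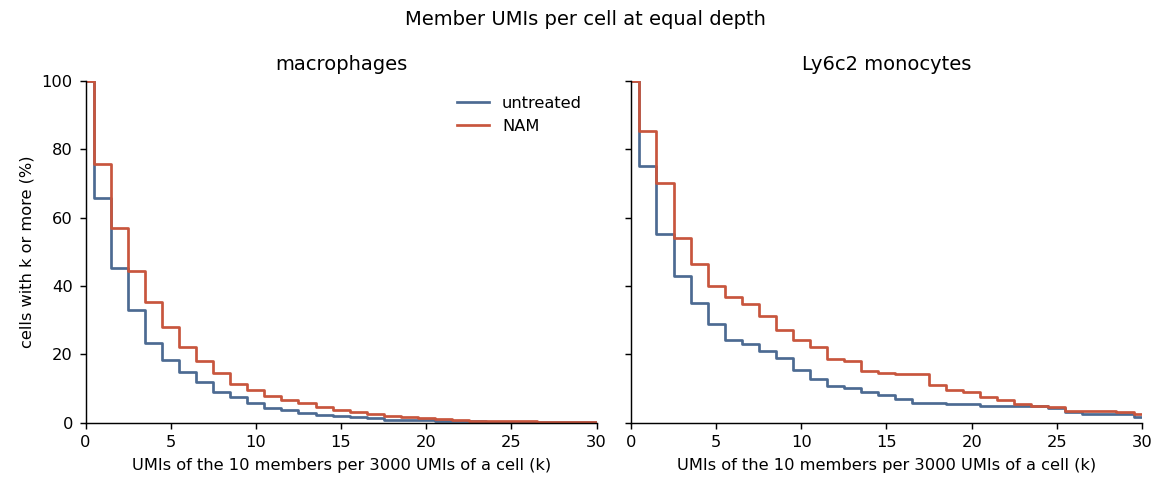
Percent of thinned cells (3000 UMIs each) that hold at least the number k of member UMIs on the x axis, for macrophages (left) and Ly6c2 monocytes (right) of the untreated (blue) and NAM (red) libraries. At 5 or more UMIs the NAM curve stands at 28.1% against 18.5% of macrophages, and at 10 or more at 24.2% against 15.6% of monocytes.

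The 3 kinds of macrophage that were separated by markers outside the GTPase family all had higher summed member levels in the NAM library. Macrophages with Vcam1 and Dnase1l3 (588 and 609 cells) went from 1118 to 1444 CPM for the summed members, giving a log2 ratio of 0.37 (0.32 to 0.41). All 10 members were higher there, against 10.7% of genes, and 4 of 10 were 1.3-fold or more higher, against 4.8% of genes. Irgm1 led with a log2 ratio of 0.58, followed by Igtp (0.52), Gbp4 (0.49) and Gbp2b (0.47). With 6 or more UMIs of Vcam1 and Dnase1l3 required in place of 3, the summed ratio was 0.44 (0.38 to 0.50) over 334 and 328 cells.

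Proliferating macrophages (228 and 230 cells) went from 737 to 983 CPM, giving a log2 ratio of 0.41 (0.34 to 0.49), with 5 of 10 members past 1.3-fold, against 5.1% of genes. Iigp1 (82.1 to 139 CPM) had the highest log2 ratio there at 0.76, whereas Gbp3 stood at 61.7 and 59.8 CPM. The remaining macrophages (1194 and 1386 cells), below the minimums of both gates, went from 776 to 1141 CPM, giving a log2 ratio of 0.56 (0.52 to 0.59), with 8 of 10 members past 1.3-fold, against 3.65% of genes. Gbp2b (log2 ratio 0.73) had the highest value among these cells and Gbp5 the lowest (0.20), with an interval that held 0. The intervals of the summed ratio in the Vcam1 and in the remaining macrophages do not overlap, while the difference between these ratios was not tested over replicates.

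**Figure D4:**
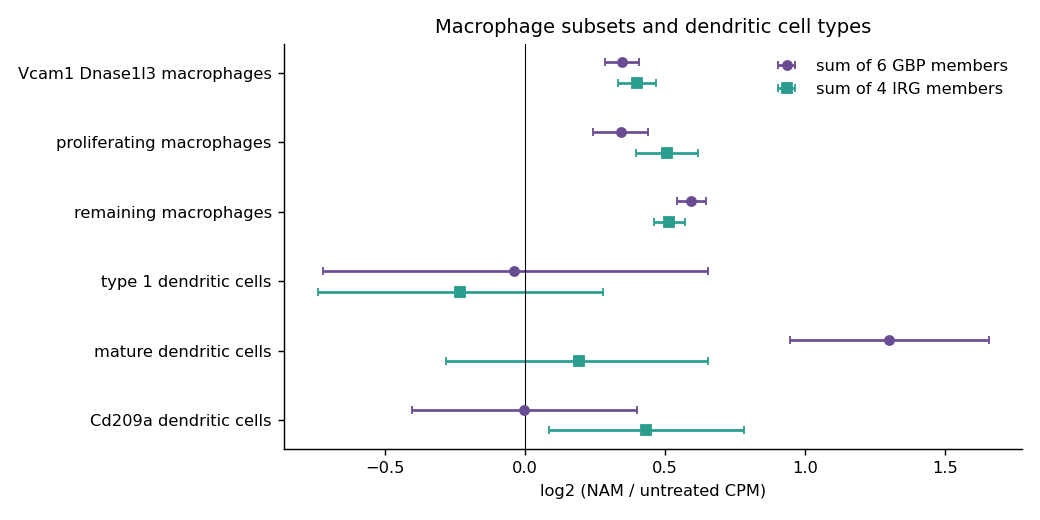
Log2 ratio of CPM, NAM over untreated, of the summed GBP members (purple circles) and the summed IRG members (green squares) in 3 macrophage subsets and 3 dendritic cell types; lines are exact 95% intervals for counting error. The sums lie at 0.35 and 0.40 in Vcam1 Dnase1l3 macrophages and at 0.59 and 0.52 in the remaining macrophages, and in mature dendritic cells the GBP sum lies above the IRG sum.

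Ly6c2 monocytes went from 1508 to 1948 CPM for the summed members, giving a log2 ratio of 0.37 (0.28 to 0.46). The interval lay above 0 for 7 members (14.5% of genes), below 0 for Gbp5 (15.3% of genes), and held 0 for Gbp3 and Gbp7. Past 1.3-fold higher were 3 of 10 members, against 10.2% of the 2694 genes with 100 or more UMIs. These were Iigp1, which went from 69.8 to 139 CPM on 83 and 159 UMIs (log2 ratio 0.99, 0.60 to 1.40), Gbp4, from 149 to 241 CPM (0.69, 0.42 to 0.97), and Igtp, from 125 to 182 CPM (0.54, 0.23 to 0.85). Gbp2b (246 to 319 CPM) and Irgm1 (171 to 220 CPM) were higher by smaller ratios, 0.37 and 0.36. When the gate minimums were set 2 times as high, the intervals of Gbp2b (0.11, -0.14 to 0.36), Gbp2 (0.24) and Ifi47 (0.07) held 0.

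Gbp5, a GBP known for promoting inflammasome assembly, went the other way. It stood at 56.3 CPM (67 UMIs) in untreated and 35.0 CPM (40 UMIs) in NAM monocytes, a log2 ratio of -0.69 (-1.29 to -0.10). It stayed negative under each alternative, from -0.83 to -0.36, but its interval held 0 under 4 of them, among them the thinned cells (-0.51) and the removal of the 5 cells with most member UMIs (-0.44). In the dendritic cell types pooled, Gbp5 stood at 30.8 and 13.3 CPM on 31 and 13 UMIs (log2 ratio -1.21, -2.27 to -0.24), with an interval that held 0 in thinned cells, with gates on thinned cells and without the 5 cells with most member UMIs (-1.06). This pooled value mixes types in different shares. Mature dendritic cells gave 21 and 10 of these Gbp5 UMIs, and they held 440127 of 1006108 dendritic UMIs in the untreated but 180010 of 978097 in the NAM library. Within mature cells Gbp5 stood at 47.7 and 55.6 CPM, a log2 ratio of 0.22 (-1.03 to 1.37). It had 5 and 0 UMIs in type 1 cells, where the upper bound of the log2 ratio was -0.36, and 5 and 3 UMIs in Cd209a cells (-1.24, -3.93 to 1.12).

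Dendritic cells of the 3 gated types together went from 547 to 658 CPM, giving a log2 ratio of 0.27 (0.10 to 0.43). The interval lay above 0 for 3 members, against 14.7% of genes, and below 0 for Gbp5, against 14.8%. Past 1.3-fold higher were 3 of 10 members, against 11.9% of genes, and 7 members had 100 or more UMIs. Iigp1 went from 47.7 to 99.2 CPM (log2 ratio 1.06, 0.54 to 1.59), Gbp4 from 56.7 to 83.8 CPM (0.57, 0.06 to 1.08) and Gbp2 from 56.7 to 80.8 CPM (0.51, 0.00 to 1.03). The calls of Gbp2 and Gbp4 were lost under some alternatives, Gbp4 with the gate minimums 2 times as high (0.49, -0.07 to 1.06), while that of Iigp1 held under each. Cd209a cells gave 14 and 59 of the 48 and 97 Iigp1 UMIs. In type 1 cells (18 and 29 UMIs) and mature cells (16 and 9 UMIs) the interval of Iigp1 held 0. Irgm1 (81.5 and 74.6 CPM) and Ifi47 (103 and 97.1 CPM) had intervals that held 0.

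The dendritic cell types are given one by one, and differences between them were not tested. In mature dendritic cells, which have taken up antigen and express Ccr7 for migration to lymph nodes, Gbp4 stood at 56.8 CPM in the untreated and 261 CPM in the NAM library (25 and 47 UMIs), a log2 ratio of 2.20 (1.47 to 2.96). It was seen in 3 of 39 untreated and 13 of 26 NAM thinned cells of this type. Gbp2b went from 75.0 to 194 CPM (log2 ratio 1.37, 0.65 to 2.11) and Gbp2 from 77.3 to 144 CPM (0.90, 0.11 to 1.68). The GBP sum was 2.46-fold higher (log2 interval 0.94 to 1.66), and the IRG sum had a log2 ratio of 0.19 with an interval that held 0.

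These values rest on 39 and 26 cells, gated by the summed UMIs of Ccr7 and Fscn1, so that 1 of these genes alone could admit a cell. In these cells 7 of 10 members were past 1.3-fold higher, against 14.5% of genes, and 1, Irgm1, past 1.3-fold lower, although none of the 10 reached 100 UMIs. Once the 5 cells per library richest in GBP UMIs were left out, the GBP log2 ratio was 0.89 (0.30 to 1.47). With the 5 richest in Gbp4 left out, that of Gbp4 was 2.20 (0.94 to 3.56).

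In Cd209a dendritic cells (30 and 39 cells) a few cells set the values. Iigp1 went from 58.9 to 175 CPM (14 and 59 UMIs, log2 ratio 1.57, 0.71 to 2.52) and Gbp2 from 54.7 to 118 CPM (13 and 40 UMIs, 1.11, 0.18 to 2.14). In thinned cells the ratio of Gbp2 was 0.27 and its interval held 0 (-1.22 to 1.88). The IRG sum had a log2 ratio of 0.43 (0.08 to 0.78) and the GBP sum one of -0.00 (-0.40 to 0.40). With the 5 cells per library richest in each sum left out, these became 1.45 and 1.61, and 0 Iigp1 and 0 Gbp2 UMIs remained in the untreated cells when the 5 richest in each gene were left out. Past 1.3-fold higher were 3 of 10 members, against 13% of genes, and past 1.3-fold lower was 1, Gbp5, with 1 of the 10 members at 100 UMIs. In type 1 dendritic cells (21 and 31 cells) the summed log2 ratio was -0.16 (-0.56 to 0.24). On few UMIs, 2 of 10 members were past 1.3-fold higher, against 14.8% of genes, and 2, Irgm1 and Gbp4, past 1.3-fold lower. For the 0 Gbp5 UMIs of the NAM cells of this type, 3 UMIs, the limit that a count of 0 allows, correspond to 6.52 CPM.

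In CD8 T cells, which kill tumor cells that present antigen, the GBP and IRG families had different ratios at full depth. The summed level was 550 and 632 CPM, giving a log2 ratio of 0.20 (-0.02 to 0.42). The IRG sum went from 193 to 324 CPM (log2 ratio 0.75, 0.40 to 1.10), whereas the GBP sum stood at 357 and 308 CPM (-0.21, -0.50 to 0.07). These intervals do not overlap, but in thinned cells they did, at 0.53 (0.09 to 0.98) for IRGs and -0.18 (-0.54 to 0.19) for GBPs, and the difference was not tested over replicates. With the 5 cells per library richest in each sum left out, the IRG ratio was 1.04 and the GBP ratio 0.03. The summed ratio of all members left 0 under 3 alternatives. It was 0.44 (0.19 to 0.70) without the 5 cells richest in members, 0.24 (0.02 to 0.46) without the 2.5% of cells with most UMIs, and 0.30 (0.07 to 0.54) in cells with at most 1 UMI of the cell cycle genes Top2a, Birc5 and Ube2c.

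Ifi47 went from 98.4 to 163 CPM in CD8 T cells (49 and 125 UMIs, log2 ratio 0.73, 0.24 to 1.24), Igtp from 66.3 to 104 CPM (33 and 80 UMIs, 0.66, 0.05 to 1.29) and Irgm1 from 22.1 to 47.0 CPM (11 and 36 UMIs, 1.09, 0.08 to 2.21). Intervals above 0 were found for 11.9% of genes. In thinned cells, the intervals of these 3 members held 0 (0.45, 0.48 and 0.97). Gbp2 stood at 60.2 and 39.1 CPM on 30 UMIs in each library (log2 ratio -0.62, -1.40 to 0.16), and Gbp4 at 118 and 124 CPM. Past 1.3-fold higher were 4 of 10 members, against 10.8% of genes, and of these 4, Ifi47 and Igtp had 100 or more UMIs. Past 1.3-fold lower were 3, Gbp2, Gbp2b and Gbp5, each with an interval that held 0.

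CD8-negative T cells, of which 79 and 86 carried the regulatory markers Foxp3, Il2ra or Ikzf2, stood at 918 and 954 CPM, giving a log2 ratio of 0.05 (-0.11 to 0.22). No single member had an interval off 0, against 26.2% of genes, and Iigp1 (68.1 to 101 CPM, log2 ratio 0.57, -0.02 to 1.16) was the 1 of 10 past 1.3-fold, against 13.1% of genes. The IRG sum was higher in the NAM library (log2 ratio 0.29, 0.05 to 0.53) and the GBP sum had a ratio of -0.17 (-0.40 to 0.06). In thinned cells these were 0.61 (0.30 to 0.93) and 0.06 (-0.25 to 0.37), and with the 5 cells per library richest in each sum left out 0.48 and -0.07. The interval of the sum left 0 under 4 alternatives. The log2 ratio was 0.34 (0.12 to 0.56) in thinned cells, 0.34 (0.14 to 0.53) in cells with at most 1 of the cell cycle UMIs, 0.19 without the 5 cells richest in members and 0.18 with gates on thinned cells. In thinned cells Iigp1 (1.28) and Ifi47 (0.82) had intervals above 0 and Gbp3 (-0.87) one below 0.

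In NK cells the summed level was 638 and 592 CPM on 198 and 86 UMIs, a log2 ratio of -0.11 (-0.49 to 0.26). Gbp4 stood at 200 CPM untreated and 131 CPM with NAM (log2 ratio -0.61, -1.44 to 0.15), and all 10 intervals held 0. Those of 23.1% of genes with 100 or more UMIs did not, but none of the 10 members reached that count. Past 1.3-fold higher were 2 of 10 members, Gbp2b and Gbp7, against 10.5% of genes, and past 1.3-fold lower were 2, Gbp4 and Irgm1. Iigp1 had 5 UMIs in untreated and 0 in NAM NK cells, and 3 UMIs correspond to 20.6 CPM in the latter. The upper bound of the summed ratio, 0.26, lies below the ratio of macrophages, 0.46, in counting error alone. Gbp4 had an interval below 0 (-1.30, -2.70 to -0.13) once the 5 cells per library richest in it were left out, and Gbp7 one above 0 (1.61, 0.16 to 3.12) without the 5 richest in all members.

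Cxcl9, a chemokine induced by interferon gamma, was used to divide cells without reading the GTPases. After thinning, 25.5% of untreated and 38.5% of NAM macrophages had a Cxcl9 UMI. In both libraries, macrophages with Cxcl9 had higher summed members than those without, by 2.47-fold in the untreated and 2.18-fold in the NAM library. Gbp2b showed the widest contrast, 4.10-fold and 2.88-fold, and Irgm1 one of the narrowest, 1.66-fold and 1.83-fold.

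The libraries differed within both classes. Macrophages with no Cxcl9 UMI went from 631 to 823 CPM, giving a log2 ratio of 0.38 (0.34 to 0.42), and those with Cxcl9 from 1560 to 1794 CPM, giving a log2 ratio of 0.20 (0.16 to 0.24). Both are smaller than the 0.46 of all macrophages, and the class with higher members held a larger share of the NAM cells. Cxcl9 itself was higher in NAM macrophages, so the cells of each class need not match between the libraries. The IRG ratio was 0.33 without and 0.32 with Cxcl9, while the GBP ratio was 0.43 (0.37 to 0.48) without and 0.11 (0.06 to 0.16) with Cxcl9.

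Monocytes gave a different picture. Those without a Cxcl9 UMI (145 and 154 cells) went from 856 to 1549 CPM, giving a log2 ratio of 0.86 (0.73 to 0.98). Iigp1 went from 18.5 to 107 CPM in them (17 and 95 UMIs in 10 and 27 cells, log2 ratio 2.53, 1.77 to 3.37), and the ratio was 3.29 with the 5 cells per library richest in Iigp1 left out. Monocytes with Cxcl9 (41 and 44 cells) stood at 3720 CPM untreated and 3355 CPM with NAM, a log2 ratio of -0.15 (-0.28 to -0.02). The lower Gbp5 of NAM monocytes lay in this class, at 155 and 51.5 CPM (42 and 13 UMIs, log2 ratio -1.59, -2.61 to -0.67). In monocytes without Cxcl9, Gbp5 had 25 and 27 UMIs.

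Macrophages were also divided by Rsad2, Ifit3 and Isg15, which respond foremost to type I interferon. With none of their UMIs, macrophages went from 632 to 904 CPM for the summed GTPases (log2 ratio 0.52, 0.48 to 0.56), with 1 to 3 UMIs from 993 to 1390 CPM (0.49, 0.44 to 0.53), and with 4 or more from 1983 to 2333 CPM (0.23, 0.18 to 0.29). The sum was higher in the NAM library in each of these classes, also in cells with no UMI of those 3 transcripts at this depth. The families, whose difference was not tested over replicates in either split, had IRG ratios of 0.59, 0.50 and 0.13 (0.05 to 0.21) and GBP ratios of 0.46, 0.47 and 0.34 (0.26 to 0.43). With 4 or more UMIs, Ifi47 stood at 332 and 307 CPM (-0.11, -0.26 to 0.04). In monocytes, the ratio was -0.28 with none (-0.66 to 0.11, on 34 and 42 cells), 0.70 with 1 to 3 and 0.39 with 4 or more.

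**Figure D5:**
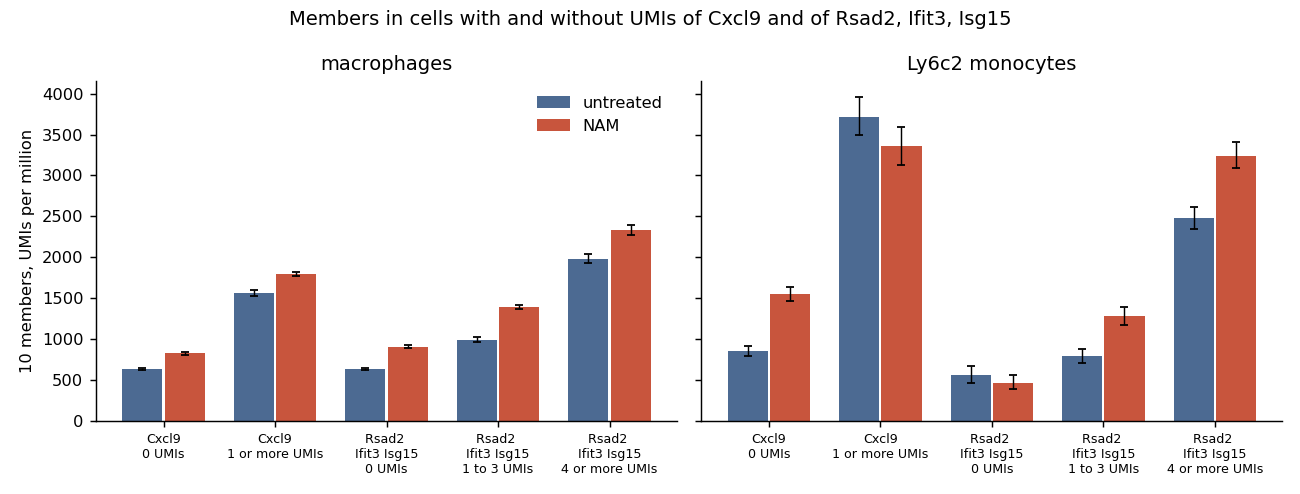
Summed members (UMIs per 1000000 UMIs, bars from 0, with exact 95% Poisson intervals for counting error) in macrophages (left) and Ly6c2 monocytes (right) divided by thinned UMIs of Cxcl9 and of Rsad2, Ifit3 and Isg15, in the untreated (blue) and NAM (red) libraries. NAM bars are above untreated bars in each macrophage class, and below them in monocytes with Cxcl9 (3355 against 3720 CPM) and in monocytes with none of the other 3 transcripts (465 against 563 CPM).

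The rest of the pathway was read from lists of genes by role, in macrophages. Ligands were scarce: Ifng, which T and NK cells chiefly make, had 9 and 11 UMIs there and in CD8 T cells 97 and 187 UMIs, a log2 ratio of 0.33 (-0.04 to 0.70). Ifnb1 had 4 UMIs in 3 untreated macrophages and 76 UMIs in 7 NAM macrophages, 44 of them in 1 cell, and Ifna4 had 0 in both. Of the 4 receptor subunits, Ifngr2 was higher (log2 ratio 0.17), Ifnar2 was lower (-0.19), and the intervals of Ifngr1 and Ifnar1 held 0.

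Of 9 kinases and transcription factors, 4 were higher and 2 lower, with a median of 0.08, where 14.6% of all genes were higher and 22.3% lower. Past 1.3-fold higher were 2 of them, Irf1 and Batf2, against 3.34% of genes. Irf1, the factor that binds ISRE letters after interferon gamma, went from 75.9 to 134 CPM (log2 ratio 0.82, 0.73 to 0.90), and Batf2 from 21.3 to 35.0 CPM (0.71). Irf2 went from 47.6 to 56.4 CPM (log2 ratio 0.24) and Irf8 from 252 to 280 CPM (0.15). The kinase Jak2 was lower, from 18.8 CPM by a log2 ratio of -0.77, and so was Jak1 (-0.21). Of the 4 inhibitors, Socs1, which is induced by interferon gamma and blocks Jak kinases, went from 39.2 to 71.3 CPM (log2 ratio 0.86, 0.74 to 0.98). Socs3 was higher by 0.06, Usp18 was lower (-0.14), and Ptpn2 had an interval that held 0.

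Other GBP and IRG genes were listed as 13 symbols, of which 10 were in the files and 6 had 100 or more UMIs in macrophages. Of these 6, 5 were higher, against 14.6% of genes: Tgtp2 (log2 ratio 0.53), F830016B08Rik (0.53), Gm4951 (0.49), Irgm2 (0.28) and Gbp8 (0.23). Gbp9 had a ratio of 0.15 with an interval that held 0. Among 11 targets of interferon gamma with 100 or more UMIs, 9 were higher (14.6% of genes) and 0 lower (22.3% of genes), with a median of 0.32, and 5 were 1.3-fold or more higher, against 3.34% of genes. Cxcl9 went from 257 to 378 CPM (log2 ratio 0.55), the peptide transporter subunit Tap2 from 71.3 to 106 CPM (0.58), the immunoproteasome subunit Psmb8 from 715 to 889 CPM (0.31) and Nos2, which makes nitric oxide, from 2.03 to 6.93 CPM (1.77).

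Of 13 targets of type I interferon with 100 or more UMIs, 3 were higher in macrophages (Oas1a 0.25, Irf7 0.23 and Isg15 0.14), against 14.6% of genes, and 4 lower (Oasl1 -0.59, Mx1 -0.48, Cmpk2 -0.48 and Usp18 -0.14), against 22.3%. Their median was -0.04. In dendritic cells pooled, 5 type I targets had 100 or more UMIs, and all 5 were lower in the NAM library, with a median log2 ratio of -0.997, against 14.8% of genes. In mature dendritic cells, of which the NAM library held fewer, 3 type I targets had as many UMIs. Of these, Usp18 was higher (0.88) and Irf7 lower (-0.42), and the interval of Isg15 held 0 (-0.14). In type 1 dendritic cells the 2 with 100 or more UMIs, Isg15 (-1.84) and Irf7 (-0.47), were lower, and in Cd209a dendritic cells the same 2 were lower as well (-0.81 and -1.02). Of 8 interferon gamma targets in dendritic cells pooled, 5 were higher, against 14.7% of genes, with a median of 0.29. In monocytes the medians of these lists were 0.04 and 0.03. Irf1 (0.52) and Socs1 (0.99) were higher in NAM monocytes, and Cxcl9 was lower (328 and 244 CPM, -0.43).

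The partners of GBPs and IRGs at vacuoles and in inflammasomes were 18 genes, of which 4 were higher and 6 lower in macrophages, with a median of -0.03, where 14.6% and 22.3% of all genes were. Past 1.3-fold higher was 1 of them, against 3.34% of genes. Casp4, a sensor of cytosolic lipopolysaccharide, went from 42.4 to 55.2 CPM (log2 ratio 0.38), Casp1 from 61.0 to 75.7 CPM (0.31), the pore protein Gsdmd from 67.0 to 72.9 CPM (0.12) and the autophagy gene Map1lc3b from 267 to 298 CPM (0.16). Lower levels were found for Nlrp3 (142 and 111 CPM, -0.35), for the autophagy genes Atg16l1 (-0.37), Atg12 (-0.24) and Gabarap (-0.03), for the autophagy receptor Sqstm1 (-0.16) and for the ubiquitin ligase Traf6 (-0.34).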

How the data were processed

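Single Cell 3′ libraries (10x Genomics), 2 in all, were analysed as deposited, 1 untreated and 1 NAM. The deposited values are raw UMI counts of each gene in each cell; the authors obtained them with Cell Ranger against mm10, and no normalisation was applied; the annotation version is not given in the sources used here. Cells in the files had 3018 to 40261 (untreated) and 3001 to 41658 UMIs (NAM).

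Cells were gated by raw UMIs: macrophages, 20 or more of C1qa, C1qb and C1qc and fewer than 3 of Cd3d, Cd3e and Cd3g; T cells, 3 or more Cd3 UMIs, with 2 or more (CD8) or 0 (CD8-negative) of Cd8a and Cd8b1; NK cells, 2 or more of Ncr1 and Klre1; mature dendritic cells, 5 or more of Ccr7 and Fscn1; type 1, 2 or more of Xcr1 and Clec9a; Cd209a cells, 2 or more; monocytes, 3 or more Ly6c2 and 1 or more Plac8 and none of the former. Macrophages were split by 5 or more of Top2a, Birc5 and Ube2c or, failing that, 3 or more of Vcam1 and Dnase1l3, a rule set after results had been seen. A further subset and part of a gene list are not reported here. Gate minimums were set on the markers' own distributions, and the members and gene lists were chosen with earlier results of these data known. Named genes are the 10 members, the 10 genes most like their sum (Pearson, log2 of CPM plus 10), and fixed lists.

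UMIs were summed per group and library. CPM carries exact Poisson intervals, log2 ratios exact conditional binomial intervals and shares Clopper-Pearson intervals, all at 95%; PCR and capture noise between libraries is not covered. Thinning to 3000 UMIs used seed 1. On simulated counts for macrophages (9808 genes), 96% of 1.5-fold and 98% of 2-fold changes had intervals off 0 on the right side. For monocytes (2696 genes) these were 81% and 100%. The simulated counts were Poisson draws from the summed counts, with no variation between cells, mice or libraries. They therefore describe counting error only and not the reliability of a difference over replicates. Python 3.11.15, NumPy 2.4.6, SciPy 1.17.1, pandas 2.3.3 and matplotlib 3.10.9 were used. The alternatives were other scaling, depth, gates, fold limit, count filter, weights of cells and sets of cells.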

Additional observations from a re-analysis of the deposited data

Results flagged for a closer look

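Gbp5 was higher in NAM macrophages and lower in NAM monocytes and in NAM dendritic cells pooled over their types. Its interval held 0 in thinned macrophages, under 4 alternatives in monocytes and under 3 in dendritic cells, and 15.3% and 14.8% of all genes were lower in the latter groups. In mature dendritic cells alone, which numbered 39 and 26 and held most Gbp5 UMIs, its ratio was 0.22 with an interval that held 0. It had 5 and 0 UMIs in type 1 and 5 and 3 UMIs in Cd209a dendritic cells. Its log2 ratio in macrophages exceeded that in monocytes by 0.95 and that in pooled dendritic cells by 1.47; with 1 library per group, this difference was not tested. The cells that met no gate (383 untreated, 466 NAM), which enter no comparison of the cell groups, had higher summed members in the NAM library, 430 against 628 CPM, a log2 ratio of 0.55 (0.46 to 0.63). Iigp1 had the highest log2 ratio in them, 1.11.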

How the results depend on the processing

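No result changed sign under any alternative once called. In macrophages the summed log2 ratio of 0.46 became 0.50 with median-of-ratios scaling and 0.51 as the mean of CPM per cell, and members past the fold limit went from 6 at 1.3-fold to 0 at 1.5-fold. In monocytes 0.37 became 0.51 in thinned cells, 0.50 without the 5 cells with most member UMIs and 0.48 as the mean per cell. In dendritic cells 0.27 became 0.49 in thinned cells, and members past the fold limit went from 3 at 1.3-fold to 1 at 1.5-fold. In CD8 T cells 0.20 became 0.44 (0.19 to 0.70) without the 5 cells with most member UMIs, an interval that left out 0, as did those of 0.24 without the 2.5% of cells with most UMIs and 0.30 in cells with at most 1 cell cycle UMI. In CD8-negative T cells 0.05 became 0.34 in thinned cells, 0.33 as the mean per cell and 0.34 in cells with at most 1 cell cycle UMI, and intervals also left out 0 at 0.19 without the 5 cells with most member UMIs and at 0.18 with gates on thinned cells. Of these values, 51 others stayed within their intervals or within 1.5 times their count. Of the values of single members, of family sums and of the sum in Vcam1 macrophages, 579 stayed within theirs and 31 did not. An interval moved on to or off 0 in 1 of 98 values in macrophages, 7 of 98 in monocytes, 13 of 98 in dendritic cells, 9 of 101 in CD8 T cells, 15 of 102 in CD8-negative T cells and 2 of 85 in NK cells. Causes were not tested. No paired analysis was possible because each group is 1 library. Leaving out cells richest in a member, cells with haemoglobin, the raised Vcam1 gate and the checks of sums in small groups were chosen after seeing the data. Depth limits CD8 T cells, NK cells and each dendritic cell type, where most members had under 100 UMIs.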

Other observations

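Cells with 40 or more UMIs of Ctsk, Acp5 and Mmp9, genes of bone-resorbing osteoclasts, numbered 129 (untreated) and 144 (NAM). Of these, 13 and 9 were also gated as macrophages. The others can be among the cells that met no gate, so the values of these sets of cells are not independent. Iigp1 stood at 26 UMIs in the former and 94 in the latter, a log2 ratio of 1.77 (1.14 to 2.46), and of 1.62 with the 5 cells per library richest in Iigp1 left out. Their IRG sum had a log2 ratio of 0.58 and their GBP sum one of 0.08, on a summed level of 349 and 437 CPM. Macrophages with 10 or more UMIs of Rsad2, Ifit3 and Isg15 (222 and 257 cells) stood at 1779 and 2117 CPM for the summed members, a log2 ratio of 0.25.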
